A study of Homo sapiens with 16 samples.

Results

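The 10 genes described here encode inhibitors of Wnt signalling that are themselves Wnt targets, and all 10 were found by symbol among the 26485 gene symbols of the count files. They were taken as a list of names, drawn up with earlier results of these libraries known: AXIN2, NKD1, NKD2, NOTUM, APCDD1, ZNRF3, RNF43, DKK1, DKK4 and WIF1. Polyadenylated RNA was sequenced from 2 colon cancer cell lines, SW480 and SW620, established from a primary tumour and a lymph node metastasis of the same patient, and both carry truncated APC. Each line carried either dnLEF1, a LEF1 that lacks the part binding beta-catenin and is labelled Wnt low, or GFP, the mock control, labelled Wnt high. The groups were SW480 dnLEF1, SW480 GFP, SW620 dnLEF1 and SW620 GFP, with 4 libraries each and 16 in all, grown in DMEM and labelled passage 6. What drives the constructs, and whether a population or 1 clone was used, is not given in the sources used here.

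Wnt ligands act through Frizzled and LRP5 or LRP6 at the cell surface, Dishevelled inside the membrane, and beta-catenin, which escapes the destruction complex of AXIN, APC and kinases and activates genes with TCF or LEF factors. Among the genes so activated are inhibitors of every one of these steps, so that a cell with high Wnt output also makes its own brakes. In colon tumours that lack working APC the brakes that act upstream of APC can be made in quantity without lowering the output. AXIN2 is widely used as a readout of the pathway in such cells.

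Gene counts per library ran from 17181204 to 26153506. In SW620 GFP replicate 3, 39.4% of the total were alignments to more than 1 place, against at most 9.46% in any other library, and the members' changes that use this library are also given without it. Libraries of a group correlated at 0.993 to 0.997 in log2 CPM over 14926 genes. Levels are given as CPM on 1 scale of TMM-adjusted library sizes over all 16 libraries, as mean ± SD with n = 4. LEF1 averaged 246 ± 49.1 CPM in SW480 dnLEF1 and 51.7 ± 1.89 in SW480 GFP, and 23.3 ± 2.35 CPM in SW620 dnLEF1 and 3.36 ± 0.501 in SW620 GFP. These counts cannot separate the construct from the cells' own LEF1, and SW620 dnLEF1 libraries held less LEF1 in CPM than SW480 GFP libraries. All 7 colon epithelial markers checked were detected in every group, although CDX2 was at 0.131 CPM in SW480 dnLEF1, against 12.2 CPM in SW480 GFP. Their summed level, most of it KRT8 and KRT18, was 7090 to 8512 CPM in SW480 dnLEF1 and 10723 to 12483 in SW480 GFP. In SW620 it was 8533 to 10835 CPM with dnLEF1 and 9934 to 12247 with GFP. With dnLEF1 in SW480, 6 of the 7 fell, VIL1 by 14.3-fold, and CDH1 rose 2.94-fold. Of all genes there, 24.4% fell and 24.2% rose. In SW620, where 2.43% of all genes fell and 6.03% rose, CDH1 fell 2.41-fold and VIL1 1.20-fold. The other 5 epithelial markers did not pass the edgeR test there. The 5 fibroblast markers summed to 14.8 to 37.9 CPM in SW480 dnLEF1, most of it COL1A1, and to 4.58 to 7.19 CPM in SW480 GFP. In SW620 they summed to 2.52 to 3.62 CPM with dnLEF1 and 4.40 to 5.91 with GFP. The 5 leukocyte markers summed to 7.32 to 9.49 CPM in SW480 dnLEF1 and 3.91 to 4.97 in SW480 GFP, and the 4 endothelial markers to 2.19 to 3.79 CPM in SW480 dnLEF1 and 0.434 to 1.37 in SW480 GFP. In SW620 the leukocyte list summed to 5.70 to 6.51 CPM with dnLEF1 and 4.47 to 5.58 with GFP, and the endothelial list reached at most 1.97 CPM. In SW480 CD68 rose 2.41-fold and LYZ 1.54-fold with dnLEF1 (edgeR adjusted p = 0.000163 and 0.0427), and these markers of myeloid cells make up most of the leukocyte sum. In SW620 LYZ rose 2.60-fold with dnLEF1 (edgeR adjusted p = 0.00673), and CD68 did not pass the test (edgeR adjusted p = 0.155). PTPRC, the pan-leukocyte marker, and CD3E, a T cell marker, were at 0 in SW480 dnLEF1 and in both SW620 groups. The part of these markers in the results below was not tested. In bulk RNA, fewer cells making a transcript and less transcript per cell cannot be told apart.

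The table of promoters used here held 5 of the 10 members, NKD2, APCDD1, RNF43, DKK1 and WIF1, with 2 starts for RNF43. AXIN2, NKD1, NOTUM, ZNRF3 and DKK4 had no entry. The 250 bases before the annotated start (RefSeq, GRCh38.p14) were searched on both strands for the TCF/LEF core CTTTGAT and its variant CTTTGTT, which do not overlap each other. CTTTGAT lay in 2.26% and CTTTGTT in 4.50% of 35116 such windows, and at least 1 of them in 6.595%. Of the 6 windows of the members, 1 held a match, that of DKK1, with CTTTGTT at position -76, counted from -1 at the base before the start. The windows of a pair of members that fell with dnLEF1 in SW480 and of the member that rose there are printed 5′ to 3′ on the strand of the gene, in lower case with the match in capitals. No match says only that these letters are not in the window. NKD2 is at chr5:1008552-1008801 (plus strand), APCDD1 at chr18:10454385-10454634 (plus strand) and DKK1 at chr10:52314031-52314280 (plus strand).
NKD2: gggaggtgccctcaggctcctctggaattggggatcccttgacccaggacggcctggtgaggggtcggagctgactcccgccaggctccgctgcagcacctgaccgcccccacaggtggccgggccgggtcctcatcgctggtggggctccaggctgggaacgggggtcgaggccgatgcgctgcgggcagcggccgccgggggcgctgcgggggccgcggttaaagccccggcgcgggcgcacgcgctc
APCDD1: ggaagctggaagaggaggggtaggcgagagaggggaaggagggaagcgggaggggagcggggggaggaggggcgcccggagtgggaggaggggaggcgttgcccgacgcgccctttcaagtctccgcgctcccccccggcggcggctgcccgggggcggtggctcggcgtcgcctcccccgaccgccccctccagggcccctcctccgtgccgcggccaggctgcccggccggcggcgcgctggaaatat
DKK1: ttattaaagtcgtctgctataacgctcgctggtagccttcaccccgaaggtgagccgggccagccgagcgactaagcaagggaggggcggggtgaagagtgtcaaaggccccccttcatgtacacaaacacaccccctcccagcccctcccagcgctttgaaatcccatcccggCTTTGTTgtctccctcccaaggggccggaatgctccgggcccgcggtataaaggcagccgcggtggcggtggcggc

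In SW480, most of these inhibitors were lower in dnLEF1 libraries than in GFP libraries. Among 9 measured members there were 7 falls, 1 rise and 1 change that did not pass, and the median log2 change of the 9 was -2.44, against -0.0013 over all 14426 genes tested. Calls are edgeR adjusted p-values below 0.05 over all genes tested. In that comparison 24.4% of all genes fell and 24.2% rose. WIF1 was not measured. The members that fell by the most were NOTUM, NKD1, AXIN2, APCDD1 and NKD2, while RNF43 fell little and DKK1 went the other way. Because of how the members were picked, their shared direction is a description.

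**Figure D1:**
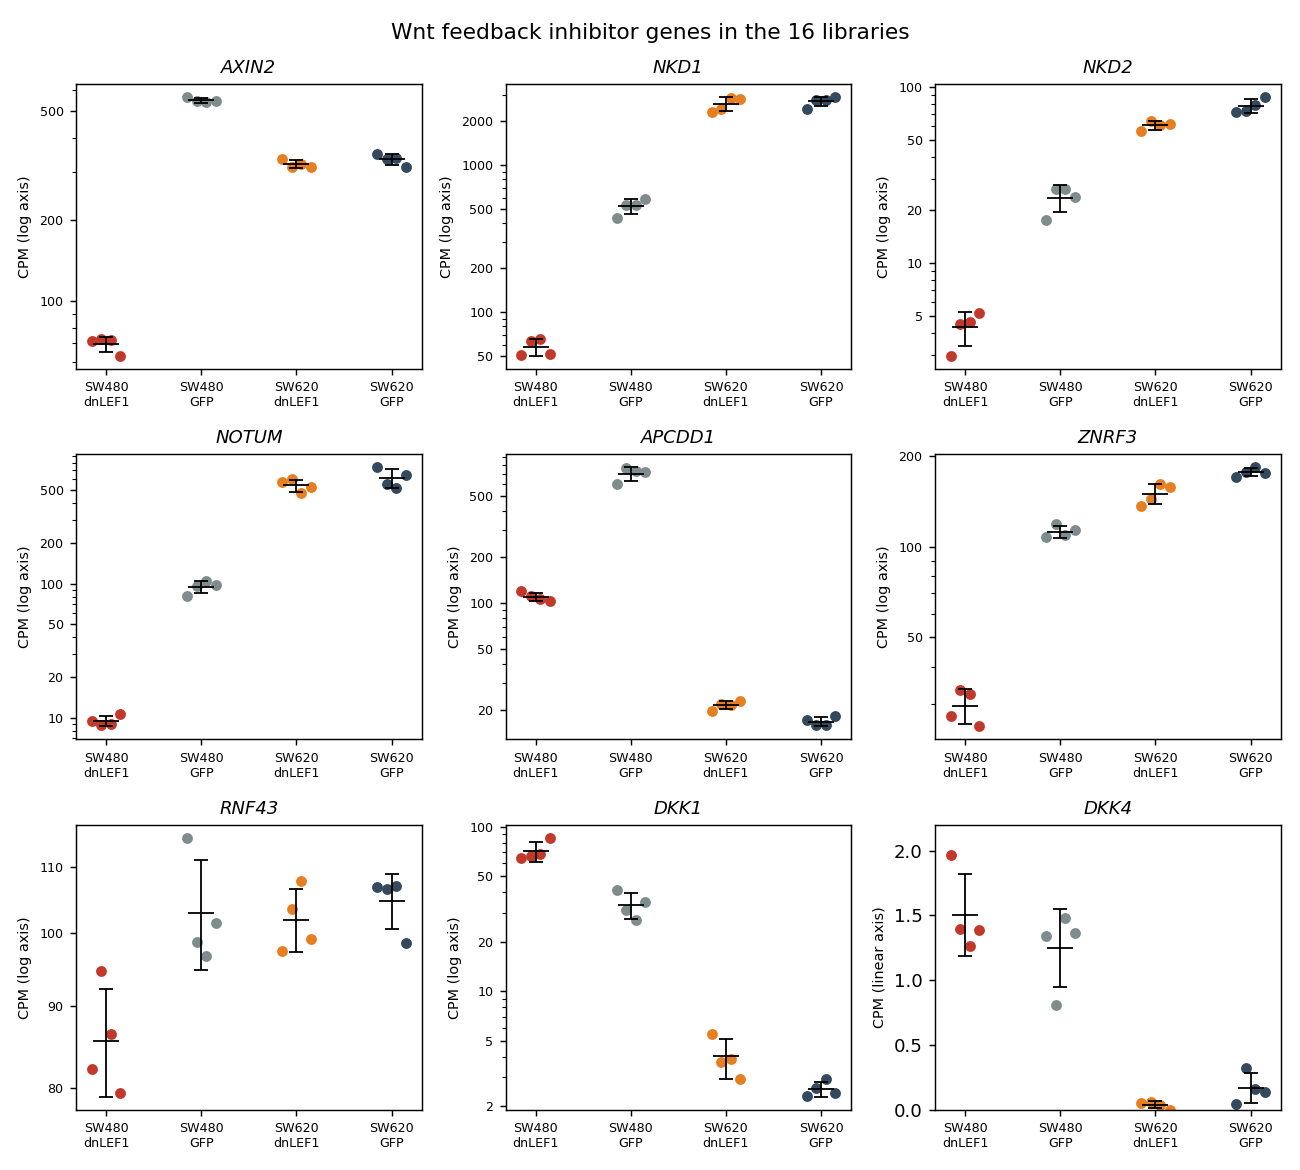
CPM of 9 members in each library (points), with the mean and SD of each group (bars); the axis is logarithmic except for DKK4. SW480 dnLEF1 libraries lie below SW480 GFP libraries for AXIN2, NKD1, NKD2, NOTUM, APCDD1, ZNRF3 and RNF43 and above them for DKK1, while the SW620 groups lie close together.

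AXIN2 encodes the inducible scaffold of the beta-catenin destruction complex (hg38 chr17:65528563-65561648, minus strand). It was at 71.5, 72.5, 72.0 and 63.1 CPM in SW480 dnLEF1 libraries 1 to 4 and at 567, 544, 542 and 548 CPM in SW480 GFP libraries. Both groups were tight, with a CV of 6.43% for dnLEF1 and 2.04% for GFP, and they were far apart. AXIN2 fell 7.87-fold, by -2.98 ± 0.07 on the log2 scale (SE, edgeR adjusted p = 1.22e-12). In SW620 the dnLEF1 libraries held 335, 312, 321 and 311 CPM and the GFP libraries 348, 335, 337 and 313 CPM. These ranges overlap, and the log2 change of -0.060 had an approximate 95% interval of -0.16 to 0.045 (edgeR adjusted p = 0.607). The 4 groups therefore stood in the order SW480 GFP, SW620 GFP, SW620 dnLEF1, SW480 dnLEF1, with only the middle pair overlapping.

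NKD1 and NKD2 are paralogues that bind Dishevelled and restrain it. NKD1 (hg38 chr16:50548396-50649249, plus strand) was at 51.1, 63.1, 65.9 and 51.9 CPM in SW480 dnLEF1 libraries and at 438, 534, 533 and 587 CPM in SW480 GFP libraries. NKD1 fell, with every dnLEF1 library far below every GFP library (log2 -3.17 ± 0.11, edgeR adjusted p = 1.91e-11). In SW620 NKD1 was the most counted member, at 2296, 2411, 2845 and 2817 CPM with dnLEF1 and 2407, 2767, 2781 and 2871 CPM with GFP. The groups overlap, and the log2 change of -0.063 had a 95% interval of -0.22 to 0.096 (edgeR adjusted p = 0.746).

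NKD2 (hg38 chr5:1008802-1038943, plus strand) followed at a lower level, with 2.97, 4.53, 4.63 and 5.19 CPM in SW480 dnLEF1 libraries and 17.6, 26.4, 26.2 and 23.8 CPM in SW480 GFP libraries. It fell 5.41-fold (log2 -2.44 ± 0.16, edgeR adjusted p = 2.25e-08). Replicate 1 was the lowest library in both groups. In SW620 NKD2 moved less, at 55.8, 63.7, 60.7 and 61.4 CPM with dnLEF1 and 72.1, 73.2, 78.9 and 88.0 CPM with GFP. The ranges do not overlap, and the fall was 1.29-fold (log2 -0.37 ± 0.07, edgeR adjusted p = 0.00452).

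NOTUM is a secreted hydrolase that removes the lipid from Wnt ligands and so inactivates them (hg38 chr17:81952507-81961840, minus strand). It had 9.41, 8.85, 8.92 and 10.6 CPM in SW480 dnLEF1 libraries and 80.9, 96.4, 105 and 98.0 CPM in SW480 GFP libraries. At 10.04-fold this was the steepest fall among the members, with a log2 change of -3.33 ± 0.10 (edgeR adjusted p = 6.06e-12). Among all genes tested it ranked 150th from the lowest. In SW620, NOTUM was at 572, 599, 472 and 524 CPM with dnLEF1 and at 741, 552, 520 and 643 CPM with GFP. The libraries overlap and spread widely, and the log2 change of -0.18 had a 95% interval of -0.38 to 0.015 (edgeR adjusted p = 0.352).

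APCDD1 is a membrane glycoprotein that binds Wnt ligands and LRP5 (hg38 chr18:10454635-10489949, plus strand). SW480 dnLEF1 libraries held 119, 111, 107 and 103 CPM and SW480 GFP libraries 596, 761, 729 and 713 CPM, a 6.34-fold fall (log2 -2.66 ± 0.09, edgeR adjusted p = 1.28e-11). In SW620 it went the opposite way from a low level. There the dnLEF1 libraries held 19.9, 22.1, 21.6 and 22.9 CPM and the GFP libraries 17.3, 15.9, 15.9 and 18.3 CPM. These did not overlap, and APCDD1 rose 1.28-fold (log2 0.36 ± 0.08, edgeR adjusted p = 0.00967).

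ZNRF3 and RNF43 are paralogous membrane E3 ubiquitin ligases that clear Frizzled receptors from the surface, and R-spondins with LGR receptors hold them in check. ZNRF3 (hg38 chr22:28883572-29057488, plus strand) had 27.4, 33.5, 32.4 and 25.3 CPM in SW480 dnLEF1 libraries and 107, 119, 109 and 114 CPM in SW480 GFP libraries. It fell 3.78-fold (log2 -1.92 ± 0.09, edgeR adjusted p = 3.74e-10). In SW620 it held 137, 144, 161 and 159 CPM with dnLEF1 and 171, 177, 184 and 176 CPM with GFP. The groups do not overlap, and the fall was 1.18-fold (log2 -0.24 ± 0.06, edgeR adjusted p = 0.0281). This call did not last in 6 of 15 alternatives, with adjusted p up to 0.0915: the fit of all 16 libraries, and without GFP replicate 2, 3 or 4 or dnLEF1 replicate 1 or 2.

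RNF43 (hg38 chr17:58353676-58417595, minus strand) was at 82.1, 94.6, 86.4 and 79.3 CPM in SW480 dnLEF1 libraries and at 115, 98.7, 96.6 and 101 CPM in SW480 GFP libraries. The groups do not overlap, but the nearest libraries were 94.6 CPM with dnLEF1 and 96.6 CPM with GFP. It fell 1.20-fold (log2 -0.26 ± 0.08, edgeR adjusted p = 0.0102). In SW620 the dnLEF1 libraries had 97.3, 103, 108 and 99.1 CPM and the GFP libraries 107, 106, 107 and 98.5 CPM, which overlap. The log2 change there was -0.038 with a 95% interval of -0.15 to 0.070 (edgeR adjusted p = 0.773). RNF43 thus kept to a narrow band from 79.3 to 115 CPM over all 16 libraries, where its paralogue ran from 25.3 to 184 CPM.

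DKK1 and DKK4 are secreted proteins of the Dickkopf family that bind LRP5 and LRP6. DKK1 (hg38 chr10:52314281-52318042, plus strand) was the member that rose in SW480, at 64.3, 66.7, 68.4 and 85.9 CPM in dnLEF1 libraries and 41.5, 31.1, 27.0 and 34.9 CPM in GFP libraries. The rise was 2.12-fold (log2 1.09 ± 0.12, edgeR adjusted p = 4.83e-06). In SW620 it was scarce, with 5.54, 3.74, 3.89 and 2.94 CPM in dnLEF1 libraries and 2.31, 2.58, 2.93 and 2.41 CPM in GFP libraries. The ranges meet closely without overlapping, and the log2 change of 0.65 ± 0.19 stood at the threshold (edgeR adjusted p = 0.0501). It was called in 4 of 15 alternatives, with an adjusted p down to 0.0163: no filter on low counts, DESeq2, a fit with the replicate number as a block, and without dnLEF1 replicate 4. An antisense gene, PRKG1-AS1, overlaps exons of DKK1, and it held 58 counts in SW480 dnLEF1, 21 in SW480 GFP, 6 in SW620 dnLEF1 and 0 in SW620 GFP. Without the strand setting, reads of either gene cannot be told apart in the overlap.

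DKK4, on chromosome 8 at 42374063 to 42377229 (hg38, minus strand), was close to the floor. It held 1.97, 1.40, 1.26 and 1.39 CPM in SW480 dnLEF1 libraries and 1.34, 0.805, 1.48 and 1.37 CPM in SW480 GFP libraries, which overlap. The log2 change of 0.27 had a 95% interval of -0.20 to 0.75 (edgeR adjusted p = 0.374). In SW620 it summed to 3 counts over the dnLEF1 libraries and 14 over the GFP libraries, too few to enter the test. The ratio of dnLEF1 to GFP was 0.211 (95% exact interval 0.0390 to 0.758), and this interval covers counting error only. WIF1, a secreted protein that binds Wnt ligands (hg38 chr12:65050626-65121305, minus strand), had 1 read in 16 libraries, in SW620 GFP replicate 2. A count of 0 over the 4 libraries of SW480 dnLEF1 allows up to 0.0327 CPM, and in SW480 GFP up to 0.0331.

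In SW620 the members that were called moved little, although its dnLEF1 libraries carry the same Wnt low label. NKD2 and ZNRF3 fell, APCDD1 rose and the other 5 of 8 measured members did not pass the test, and the median log2 change was -0.061, against -0.0044 over all 13336 genes tested. Of all genes, 2.43% fell and 6.03% rose. Among the called members, NKD2 changed by the most, at 1.29-fold. Without SW620 GFP replicate 3, NKD2 at -0.36 and APCDD1 at 0.33 on the log2 scale were still called (edgeR adjusted p = 0.0147 and 0.0362), and ZNRF3 at -0.22 was not (adjusted p = 0.0869). AXIN2, NKD1, NOTUM, RNF43 and DKK1 then had log2 changes of -0.052, -0.049, -0.25, -0.027 and 0.72, none of them called. A log2 fall as large as that of SW480 lay outside the 95% interval for AXIN2, NKD1, NKD2, NOTUM, APCDD1 and ZNRF3. The small SW480 fall of RNF43, -0.26, lay outside too, but its difference between the lines was not called (edgeR adjusted p = 0.0741).

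**Figure D2:**
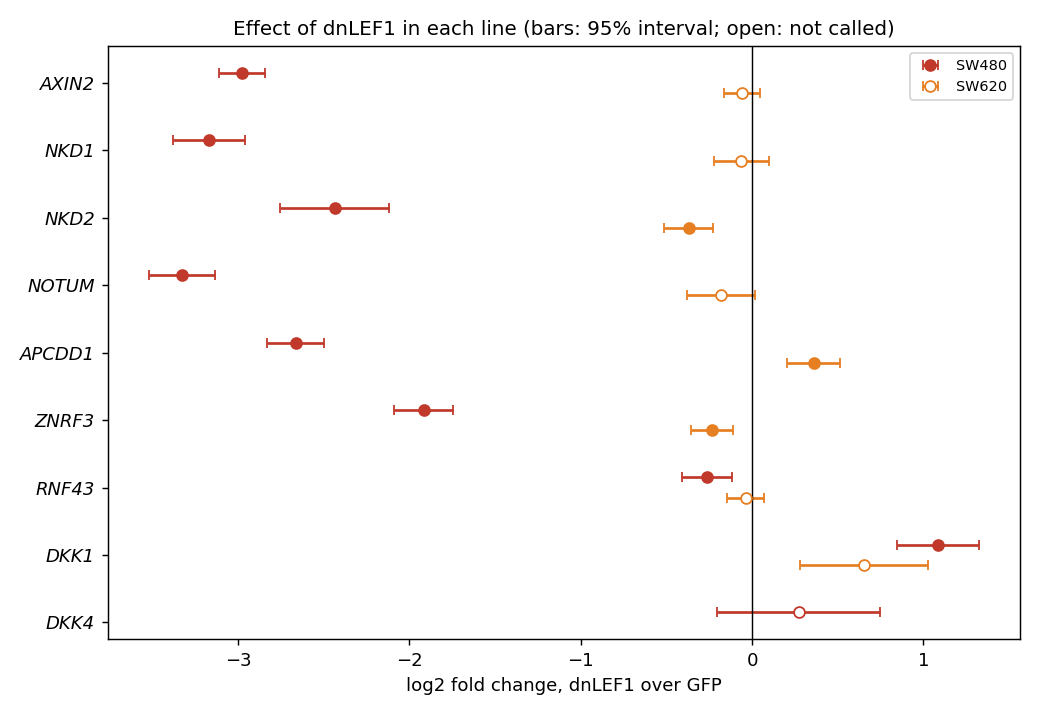
Log2 fold change of dnLEF1 over GFP for each member in SW480 and in SW620, with approximate 95% intervals; filled points passed the test. In SW480 6 members lie between -3.33 and -1.92, whereas in SW620 the same 6 lie between -0.37 and 0.36.

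Whether dnLEF1 acted differently on the lines was tested directly, as its effect in SW620 minus its effect in SW480, in 1 fit of 14926 genes. Of 9 measured members the difference was positive and called for 6, negative and called for 1, and not called for 2. Over all genes 16.2% were called positive and 12.3% negative. It was 3.15 ± 0.16 on the log2 scale for NOTUM (edgeR adjusted p = 3.06e-12), 3.11 ± 0.14 for NKD1, 3.03 ± 0.11 for APCDD1 and 2.92 ± 0.08 for AXIN2 (edgeR adjusted p = 1.02e-15). For NKD2 it was 2.07 ± 0.18 and for ZNRF3 1.68 ± 0.11. RNF43 had a difference of 0.23 with a 95% interval of 0.045 to 0.41 (edgeR adjusted p = 0.0741), which was called only without SW480 dnLEF1 replicate 2 (adjusted p = 0.0290). DKK1 had -0.43 with an interval of -0.91 to 0.043 (edgeR adjusted p = 0.197). The negative call was DKK4, at -2.34 ± 0.81 (edgeR adjusted p = 0.0350). It rests on 3 counts in SW620 dnLEF1 and 14 in SW620 GFP, so its fitted size depends on the prior count. It was lost without SW480 dnLEF1 replicate 1, SW620 GFP replicate 2 or 3, or SW620 dnLEF1 replicate 1, 3 or 4, with adjusted p up to 0.143. DKK4 had too few counts to enter the SW620 comparison and entered this fit through its SW480 libraries. Without SW620 GFP replicate 3, the 6 positive differences were called too, from 1.70 for ZNRF3 to 3.12 for NKD1. RNF43 then had 0.24, DKK1 -0.36 and DKK4 -2.35 (edgeR adjusted p = 0.0516 for DKK4).

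Between SW620 GFP and SW480 GFP, 4 of 9 measured members were higher in SW620 and 4 were lower. This is near the shares among all 14350 genes tested, of which 37.7% were higher and 40.3% lower, so the counts are not a result about the members, and their levels follow. NOTUM was 6.43-fold, NKD1 5.15-fold, NKD2 3.31-fold and ZNRF3 1.57-fold higher in SW620. APCDD1 was 41.6-fold lower in SW620, at 16.9 ± 1.15 CPM in SW620 GFP and 700 ± 71.7 CPM in SW480 GFP (log2 -5.38 ± 0.09, edgeR adjusted p = 2.65e-15). DKK1 was 13.2-fold lower at 2.56 ± 0.270 CPM in SW620 GFP and 33.6 ± 6.15 CPM in SW480 GFP, and DKK4 was 7.38-fold lower. DKK4 had 14 counts in SW620 GFP and 113 in SW480 GFP, and it entered this test through its SW480 libraries. Its ratio of SW620 to SW480 counts was 0.132 (95% exact interval 0.0701 to 0.231), and this interval covers counting error only. AXIN2 was 1.66-fold lower in SW620 GFP, at 333 ± 14.6 CPM, than in SW480 GFP, at 550 ± 11.2 CPM. RNF43 differed by a log2 of 0.018 with a 95% interval of -0.11 to 0.14 (edgeR adjusted p = 0.803). Without SW620 GFP replicate 3 the log2 differences were 2.76 for NOTUM, 2.36 for NKD1, 1.73 for NKD2, 0.64 for ZNRF3, 0.016 for RNF43, -0.73 for AXIN2, -2.86 for DKK4, -3.78 for DKK1 and -5.35 for APCDD1. All but that of RNF43 were called.

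**Figure D3:**
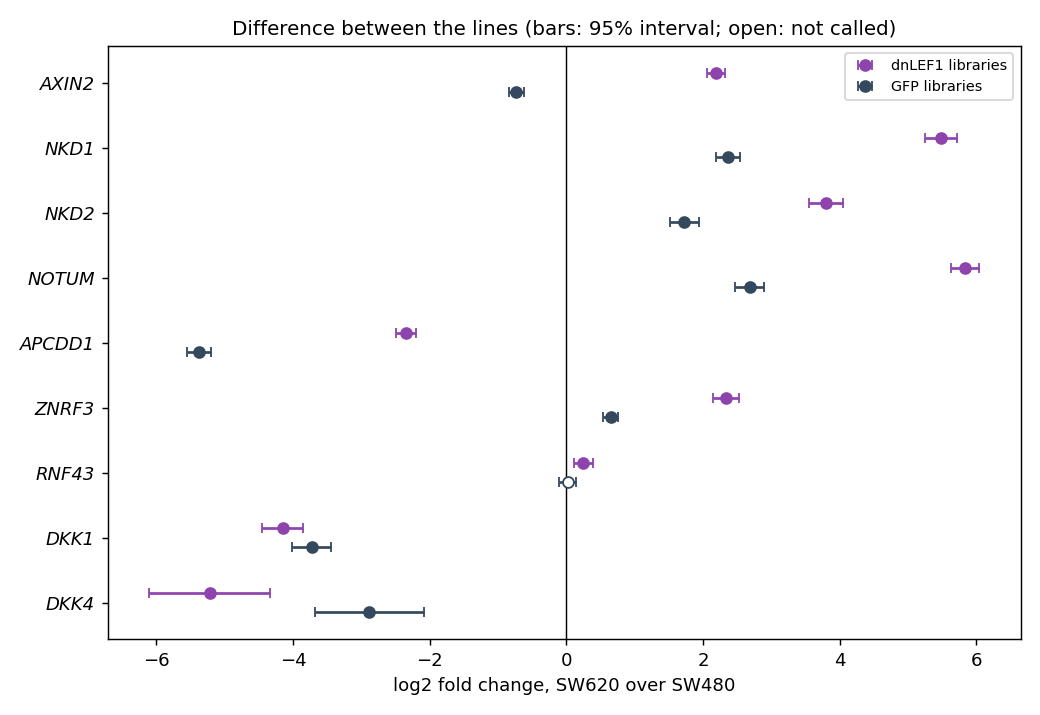
Log2 fold change of SW620 over SW480 for each member, in dnLEF1 libraries and in GFP libraries, with approximate 95% intervals; filled points passed the test. APCDD1, DKK1 and DKK4 lie below 0 in both, NKD1, NKD2, NOTUM and ZNRF3 above 0 in both, and AXIN2 changes side. DKK4 rests on few counts in SW620.

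Between the dnLEF1 groups the gap was wider for NOTUM, NKD1, NKD2 and ZNRF3 and narrower for APCDD1, and AXIN2 stood higher in SW620. Of 9 measured members 6 were higher in SW620 dnLEF1 than in SW480 dnLEF1 and 3 were lower, against 38.7% of 14397 genes higher and 40.2% lower. NOTUM was 57.2-fold higher, at 542 ± 56.0 CPM in SW620 dnLEF1 and 9.46 ± 0.834 CPM in SW480 dnLEF1 (log2 5.84 ± 0.10, edgeR adjusted p = 3.83e-15). NKD1 was 44.6-fold, NKD2 13.9-fold, ZNRF3 5.05-fold and AXIN2 4.58-fold higher in SW620. APCDD1 stayed lower in SW620, 5.10-fold, with 21.6 ± 1.27 CPM in SW620 dnLEF1 and 110 ± 6.94 CPM in SW480 dnLEF1. DKK1 was 17.8-fold lower, and DKK4 had 3 counts in SW620 dnLEF1 and 138 in SW480 dnLEF1, a ratio of 0.0232 (95% exact interval 0.00473 to 0.0692). DKK4 entered this test, too, through its SW480 libraries. RNF43 was 1.19-fold higher (edgeR adjusted p = 0.00469), but not with plain library sizes (adjusted p = 0.107). The line comparisons share libraries with the dnLEF1 comparisons, so the 4 contrasts are not independent of each other.

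Levels of different members can be set against each other only per length. CPM was divided by the length in kilobases of the MANE Select transcript in GENCODE 44, which may differ from the authors' gene models. NKD1 was left out of the order, because its transcript is 17039 bases, against 896 to 6872 for the others. At that length NKD1 stood at 152 ± 16.4 CPM per kb in SW620 dnLEF1 and 159 ± 12.0 in SW620 GFP. In SW480 it stood at 3.40 ± 0.448 with dnLEF1 and 30.7 ± 3.65 with GFP. A shorter transcript would give higher values. In SW480 dnLEF1 libraries DKK1 came first at 39.5 ± 5.46 CPM per kb, followed by APCDD1 at 29.0 ± 1.82, RNF43 at 18.9 ± 1.47 and AXIN2 at 16.4 ± 1.05. ZNRF3, NOTUM and NKD2 lay at 4.32 or below. SW480 GFP libraries had APCDD1 first at 184 ± 18.9 CPM per kb, then AXIN2 at 129 ± 2.64 and NOTUM at 42.8 ± 4.58, and DKK1 was at 18.6 ± 3.41. In SW620 dnLEF1 libraries, with NKD1 left out, NOTUM led at 244 ± 25.2 CPM per kb, ahead of AXIN2 at 75.1 ± 2.62 and NKD2 at 27.7 ± 1.51. NKD1 would lie between NOTUM and AXIN2 in both SW620 groups. SW620 GFP libraries had the same 3 in front of the members ordered, with NOTUM at 276 ± 44.8, AXIN2 at 78.2 ± 3.44 and NKD2 at 35.8 ± 3.32. APCDD1 was at 4.43 ± 0.303.

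The medians of neighbouring genes stayed near 0 in SW480. For each member the 10 tested genes on either side on its chromosome were taken, 20 in all. Their median log2 change lay between -0.26 and 0.12 for the 9 measured members in SW480, although single neighbours fell as far as -8.04 beside NKD1 and -10.5 beside DKK1. Of all genes tested in SW480, 24.4% fell and 24.2% rose. For NOTUM the neighbours' median was 0.12, with 2 of 20 fallen, against -3.33 for NOTUM itself. For AXIN2 the median was -0.14 and for NKD1 -0.12, with 7 and 8 of 20 fallen. DKK1, which rose, had neighbours with a median of -0.26, 10 of them fallen. Between SW620 GFP and SW480 GFP, where 37.7% of all genes were higher in SW620 and 40.3% lower, the neighbours were less flat. Those of NOTUM had a median of 0.79 with 18 of 20 higher in SW620, where NOTUM was at 2.68. Those of DKK1 had a median of 1.14 with 17 of 20 higher in SW620, while DKK1 itself was lower at -3.73. For APCDD1 the neighbours' median was -0.42 with 14 of 20 lower, against -5.38 for APCDD1.

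**Figure D4:**
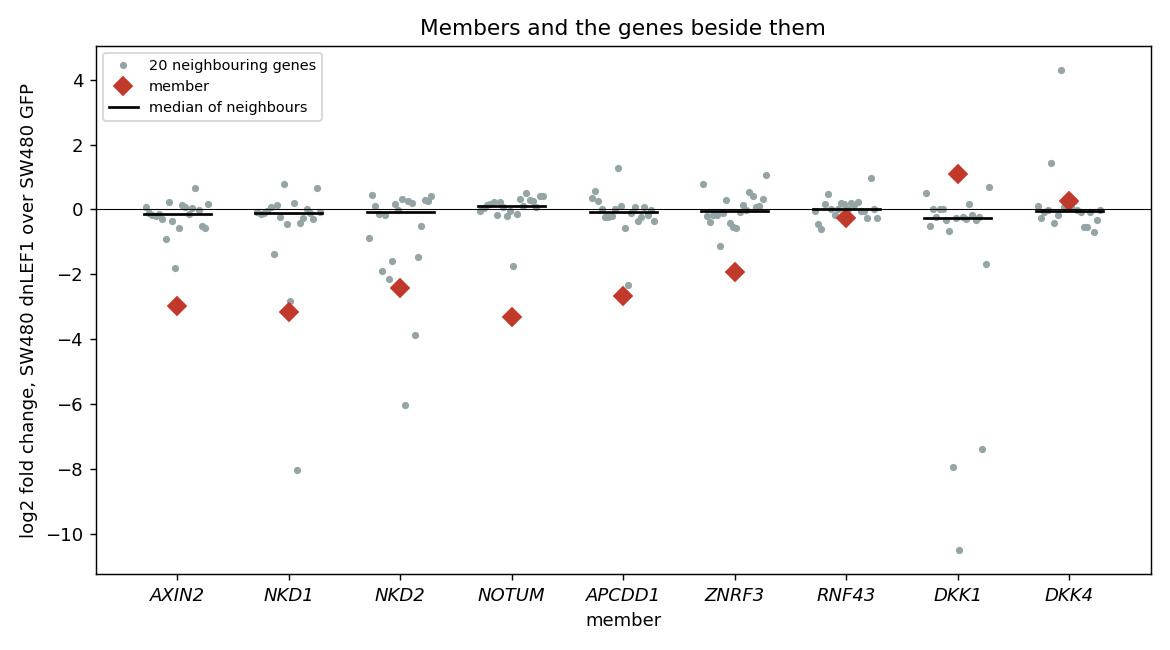
Log2 fold change of SW480 dnLEF1 over SW480 GFP for each member (diamonds), the 20 tested genes nearest to it (points) and their median (lines). The medians lie between -0.26 and 0.12 while 6 members lie at -1.92 or lower.

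Other genes of the pathway went in both directions in SW480, where 24.2% of all genes rose and 24.4% fell. Of 12 measured genes among 21 other secreted or membrane Wnt antagonists, 7 rose and 4 fell with a median of 0.37. FRZB, a secreted Frizzled-related protein, rose 18.4-fold, KREMEN2, a Dickkopf receptor, 1.84-fold and DKK3 1.79-fold, whereas SFRP5, another Frizzled-related protein, fell 2.61-fold. Among 20 measured intracellular negative regulators and destruction complex genes, 6 rose and 10 fell with a median of -0.16. The Groucho corepressor genes went in different directions: TLE1 rose 20.8-fold and TLE2 4.63-fold, and TLE3 fell 1.76-fold. PRICKLE1 rose 7.60-fold.

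Of 21 measured genes for receptors and their partners, which the secreted and membrane inhibitors act on, 11 rose and 7 fell in SW480. Their median was 0.19, and of all genes 24.2% rose and 24.4% fell. The Frizzled genes were split. FZD2, FZD7 and FZD1 rose 2.78-fold, 1.88-fold and 1.73-fold, and FZD4, FZD6 and FZD9 rose as well. FZD10, FZD8 and FZD3 fell, and FZD10, whose value was chosen after it was seen, had the largest change of the Frizzled genes at 14.6-fold. On the same list the R-spondin receptor gene LGR5, which is also on the list of targets, fell 11.5-fold. Of the other R-spondin receptor genes, LGR6 fell as well and LGR4 rose. Of 17 Wnt targets that are not inhibitors, 13 fell, with a median of -1.27, and the 1 rise was LEF1, the gene of the construct. LEF1 is included in that median. SP5, a transcription factor, fell 6.01-fold, PROX1 9.45-fold, ASCL2 5.24-fold and BMP4 2.40-fold. In SW620, 2.43% of all genes fell and 6.03% rose. None of 7 measured other antagonists passed there, and 2 of 14 intracellular regulators fell (AMER1 and CXXC5). Of 19 receptor genes FZD10 and WLS rose and FZD6 fell. Of 16 non-inhibitor targets there, LEF1 and TNFRSF19 rose and FGF9 fell 3.98-fold. The 7, 14, 19 and 16 genes had medians of -0.032, -0.083, 0.012 and 0.055, the last with LEF1 included.

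**Figure D5:**
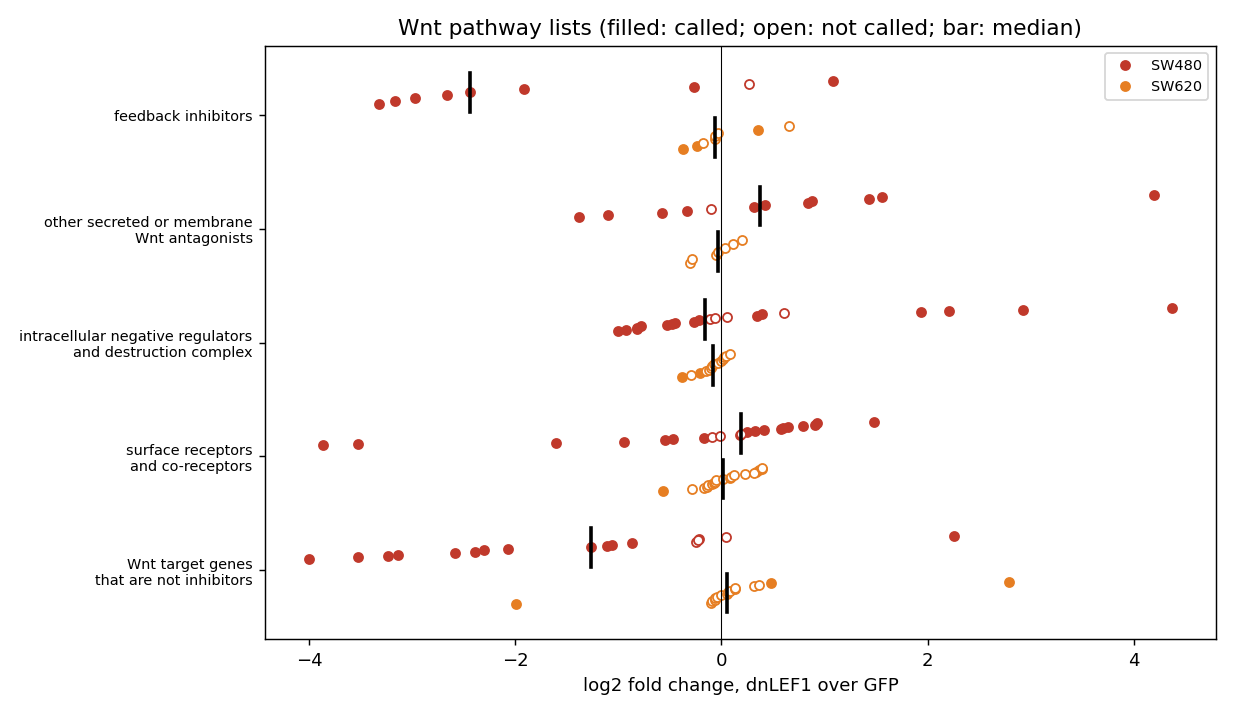
Log2 fold change of dnLEF1 over GFP for the measured genes of 5 Wnt pathway lists in SW480 and SW620; filled points passed the test and bars mark medians. The inhibitors and the other targets have SW480 medians of -2.44 and -1.27, while the 3 remaining lists lie between -0.16 and 0.37. The median of the other targets includes LEF1, the gene of the construct.

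The genes whose level ran most like that of AXIN2 over the 16 libraries were FHOD3, LRP8, KIZ, CDX2 and PCDH9. Their Pearson correlations with AXIN2 in log2(CPM + 0.5) were 0.992, 0.987, 0.985, 0.982 and 0.981, the highest of 11748 genes ranked with the other members left out. The 16 points fall into 4 groups of 4 libraries, so these values mostly describe the order of 4 group means. FHOD3, a formin gene, averaged 2.13 CPM in SW480 dnLEF1 and 17.4 in SW480 GFP, and 10.4 CPM in SW620 dnLEF1 and 12.6 in SW620 GFP. LRP8, a lipoprotein receptor gene, averaged 41.6 CPM in SW480 dnLEF1 and 90.5 in SW480 GFP.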

How the data were processed

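RNA counts per gene symbol were deposited by the authors as raw counts, 1 file per library. Trimmomatic, TopHat2, HTSeq and DESeq2 with hg38 are named, without versions, per the submitters' processing notes. Which annotation and strand setting they used is not given in the sources used here. HTSeq's 5 summary lines, 20.0% to 50.5% of a library's total, were left out. No step here changed the deposited counts. The tests used edgeR 4.0.16 under R 4.3.3 (TMM factors, filterByExpr, quasi-likelihood test, Benjamini-Hochberg over all genes tested). Each pair of groups was fitted on its own 8 libraries and the difference between lines on all 16. Standard errors were obtained as |log2 fold change| divided by root F, and 95% intervals from the normal quantile. Alternatives were RLE factors, plain library sizes, no filter, DESeq2 1.42.0, limma 3.58.1 voom, 1 joint fit, a replicate block, and each library left out. The procedure was tested on simulated data.

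Members and lists were chosen with earlier results of these data known. Named genes are all 10 members, LEF1, called genes of 4 pathway lists (at most 4 each with values, by smallest adjusted p), and the 5 genes most correlated with AXIN2. The labels do not say that libraries came from separate cultures, so p-values measure the spread between these libraries, which may be technical. Within groups the chi-square per degree of freedom between libraries was 1.99 to 22.2, above counting noise, so all were counted. The lowest values were those of replicates 2 and 3 in SW480, at 1.99 with GFP and 2.33 with dnLEF1. Positions came from GENCODE 44, which placed 23161 of 26485 symbols (87.5%).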

Additional observations from a re-analysis of the deposited data

Results flagged for a closer look

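The dnLEF1 effect differed between the lines for 6 members tested in both, by the test of the difference itself. DKK4 was also called, with the limits given below. The difference was SW620 minus SW480 on the log2 scale (edgeR quasi-likelihood in 1 fit of 16 libraries). The values were 3.15 for NOTUM, 3.11 for NKD1, 3.03 for APCDD1, 2.92 for AXIN2, 2.07 for NKD2, 1.68 for ZNRF3 and -2.34 for DKK4. DKK4 was too low to be tested within SW620, with 3 counts in SW620 dnLEF1 and 14 in SW620 GFP, and entered the joint fit through SW480. Its call (edgeR adjusted p = 0.0350) was lost in 6 of 22 alternatives, with adjusted p up to 0.143.

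In 3 of 37 groups of 4 values, 1 library lay far from the others, and chance gives about 1 in 20. AXIN2 was at 63.1 CPM in SW480 dnLEF1 replicate 4 and at 71.5 to 72.5 CPM in the other 3 libraries. RNF43 was at 98.5 CPM in SW620 GFP replicate 4 and at 106 to 107 CPM in the others. WIF1 had its single read, 0.0461 CPM, in SW620 GFP replicate 2. A single read among libraries at 0 always stands apart in this way, so that group says nothing against the chance rate. LEF1 was also lowest in SW480 dnLEF1 replicate 4, at 173 CPM against 269 CPM or more in the others. Whether that bears on AXIN2 was not tested.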

How the results depend on the processing

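Of 723 values of 44 member fold changes under the alternatives, 702 kept their direction and their side of the threshold. The 13 lost calls were 6 of ZNRF3 in SW620, 6 of DKK4 in the difference between lines and 1 of RNF43 between dnLEF1 groups. The 5 gained calls were 4 of DKK1 in SW620 and 1 of RNF43 in the difference between lines. Between the GFP groups RNF43, near 0 and not called, changed sign with plain library sizes (-0.083), and ran from -0.013 to 0.076 over single left-out libraries. Plain library sizes moved the median of all genes to -0.12 in both line comparisons. With the replicate block 8 members were called in SW480, 4 in SW620, 7 in the difference, 8 between GFP groups and 9 between dnLEF1 groups. The numbers were not taken to pair libraries, since in none of the 4 comparisons did every same-numbered pair correlate above 0.1 in deviations from the group means. Replicate 1 did correlate best with replicate 1 in all 4. The values were 0.27 in SW480, 0.39 in SW620, 0.20 between GFP groups and 0.20 between dnLEF1 groups. The main fits hold no term for this. In SW620, replicates 1, 3 and 4 of dnLEF1 and GFP correlated at 0.39, 0.22 and 0.24, each best with its own number, and replicate 2 at -0.023. There the block gained DKK1 (edgeR adjusted p = 0.0163) and moved all-gene calls to 1149 rises and 676 falls, against 804 and 324. Without single libraries the count of members called in SW620 was 2 to 4. Low counts kept WIF1 out of every test and DKK4 out of the SW620 comparison.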
